A study of Rattus norvegicus with 10 samples.

Results

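NRF2 target antioxidant genes were examined in rat left ventricle on day 3 after the heart had been given foreign genes. The transcription factor NRF2 (gene Nfe2l2) is bound by KEAP1, which hands it to a ubiquitin ligase built on CUL3 and RBX1. When oxidants or electrophiles modify KEAP1, NRF2 accumulates, pairs with small MAF proteins and binds antioxidant response elements. Its targets make and recycle glutathione, run the thioredoxin system, break down haem and reduce quinones, and in heart muscle they limit damage from peroxides. Members were the genes Srxn1, Hmox1, Nqo1, Gclc, Gclm, Txnrd1, Gsr, Prdx1 and Osgin1, taken where a probe set carried exactly that symbol in the platform annotation. This gave 12 probe sets for 8 of the 9 genes, out of 14217 genes named by a probe set of their own. The only probe set naming Prdx1 named Prdx1l1 as well, so Prdx1 had no probe set of its own.

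In the treated group, called p38, hearts were given 2 genes, the wild-type kinase p38α and MKK3bE, which is a version of its upstream activator that is always on. Control hearts were given LacZ, which codes for a bacterial β-galactosidase, so both groups had undergone gene transfer. Each group had 5 samples from rats of 250 to 300 g, and 9 of the 10 were labelled male Sprague-Dawley; age and the delivery vehicle were not given in the sources used here. Total RNA of whole ventricular tissue was measured on 1 short-oligonucleotide array per sample. Values below are levels as log2(signal + 16) after quantile normalization between arrays, unless called a change, which is the p38 mean minus the LacZ mean on that scale. The ± of a change is its standard error in limma (n = 5 and 5 arrays), and adjusted p is limma's Benjamini-Hochberg value over 18625 tested probe sets. Whether every array stands for its own animal is not stated in the labels, and p-values therefore cover only the spread among these samples.

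Array records and marker signals are given first. The experiment files list a fluidics status of Completed for LacZ 1 to 4, p38 4 and p38 5, and Started for LacZ 5 and p38 1 to 3. Completed thus covers 4 LacZ and 2 p38 arrays, so status and group are partly confounded. What the status says of array quality was not tested. Cardiomyocyte markers were bright on all 10 arrays, with a summed signal of 112533 to 118335 in LacZ and 112409 to 119039 in p38. Macrophage markers were higher in p38, where 16 of 19 tested members rose and none fell, and array LacZ 5 carried more of their signal than the other LacZ arrays. In whole tissue, more cells of a type and more RNA per cell cannot be told apart.

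Promoter sequence was available for 7 of the 9 genes in the RefSeq table of the GRCr8 assembly, as 8 windows from 250 bases before to 50 after a start site. The core of the antioxidant response element was searched as TGACNNNGC, and the AP-1 motif, bound by stress-induced FOS, JUN and ATF factors downstream of MAP kinases, as TGANTCA, both on either strand. Promoters are shown for the gene with the largest change, Srxn1, and for Gclm and Txnrd1, measured genes whose window holds the antioxidant core, from 250 bases before to 5 after the start, 5′ to 3′ on the gene's strand. Capitals mark the AP-1 motif in Srxn1 and the antioxidant core in the others, where it lies on the opposite strand.
Srxn1, chr3:161064562-161064816, plus strand: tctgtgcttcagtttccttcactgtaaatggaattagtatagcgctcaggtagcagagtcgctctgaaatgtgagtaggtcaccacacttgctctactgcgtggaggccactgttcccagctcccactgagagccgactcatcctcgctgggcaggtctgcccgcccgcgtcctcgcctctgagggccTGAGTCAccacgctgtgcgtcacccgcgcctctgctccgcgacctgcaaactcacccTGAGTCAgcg
Gclm, chr2:213031885-213032139, plus strand: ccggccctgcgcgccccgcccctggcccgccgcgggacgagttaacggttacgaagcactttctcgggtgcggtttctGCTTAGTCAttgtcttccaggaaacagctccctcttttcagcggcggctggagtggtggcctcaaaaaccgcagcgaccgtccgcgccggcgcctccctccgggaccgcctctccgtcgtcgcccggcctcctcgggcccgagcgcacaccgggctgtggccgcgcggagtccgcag
Txnrd1, chr7:22755900-22756154, minus strand: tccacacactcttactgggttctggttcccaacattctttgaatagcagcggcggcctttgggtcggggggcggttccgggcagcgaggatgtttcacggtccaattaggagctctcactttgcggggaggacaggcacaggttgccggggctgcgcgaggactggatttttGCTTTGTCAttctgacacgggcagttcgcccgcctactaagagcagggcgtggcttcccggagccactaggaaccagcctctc
The Srxn1 window held 2 AP-1 motifs, starting 62 and 5 bases before the start site, and no antioxidant core in this spelling. The core stood in 3 of the 8 windows, those of Gclm, Prdx1 and the downstream Txnrd1 start, and in 12.1% of all 33469 promoters of the table. An AP-1 motif stood in 2 of the 8, those of Srxn1 and Prdx1, and in 7.33% of all promoters, and in Prdx1 it overlapped the antioxidant core. The looser spelling TGANNNNGC, tried after the first search, matched 6 of the 8 windows, Srxn1 with 3 matches, and 40.5% of all promoters. In Srxn1 the AP-1 motif 5 bases before the start lies within such a match, TGAGTCAGC. The windows of Gclc and the upstream Txnrd1 start held none of these spellings. These are matches of letters only.

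Of the 8 member genes, 2 rose in p38 hearts at their brightest probe set, Srxn1 and Gclc, none fell and 6 did not pass the test. The background was 11.6% of 10596 named genes rising, 6.23% falling and 17.8% passing in either direction. By probe set, 3 of 11 tested member probe sets rose and none fell, against 8.6% rising, 7.4% falling and 16% passing over all tested probe sets. The median change of the 8 genes was 0.33, against 0.00 over all tested named genes, and 7 of the 8 had a higher mean in p38. The count was small enough to turn on single arrays. It was 1 without any of LacZ 1 to 4, p38 2, p38 4 or p38 5, 2 without LacZ 5, 3 without p38 3 and 4 without p38 1.

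**Figure D1:**
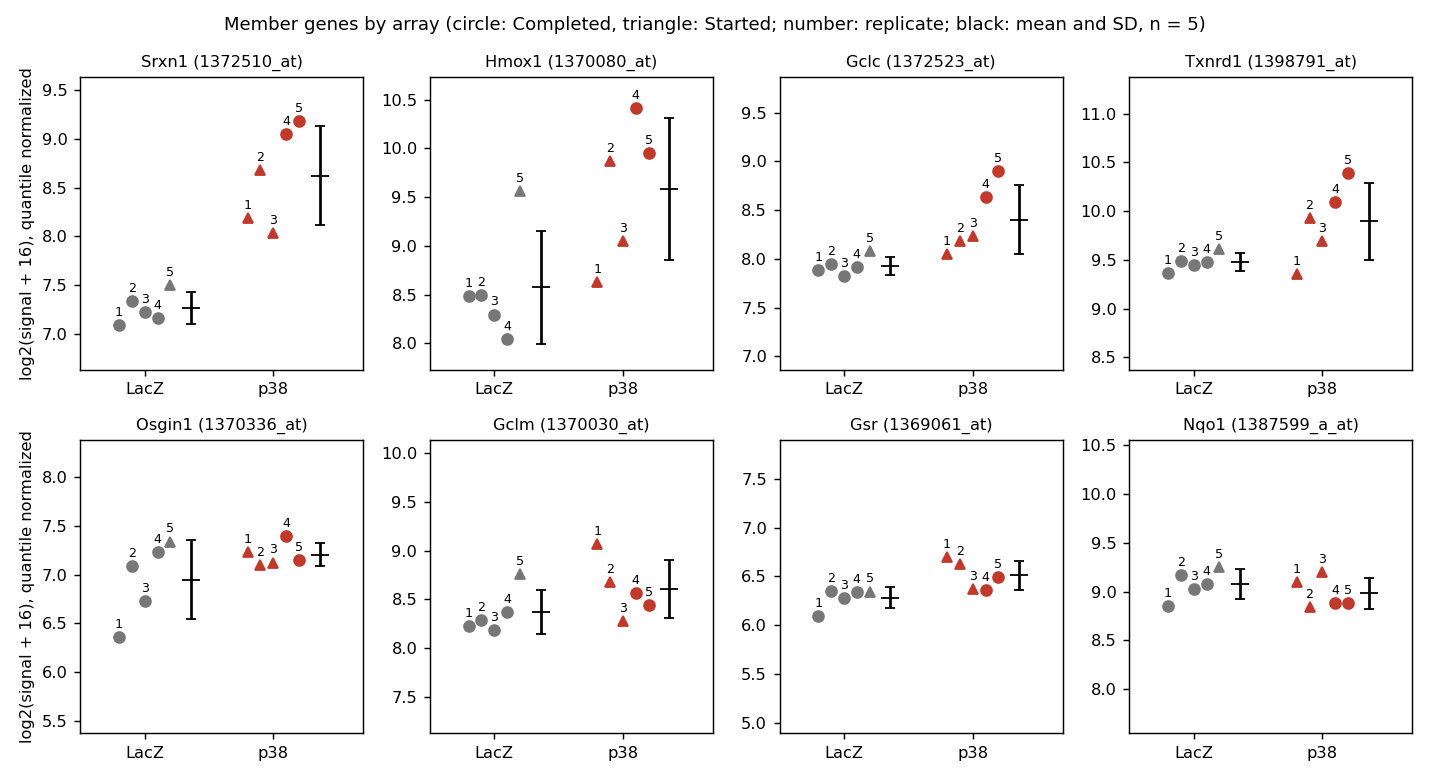
Level of each of the 8 measured member genes at its brightest probe set, as log2(signal + 16) after quantile normalization (y axis, the same height in every panel), on each LacZ and p38 array (x axis). Points are arrays with their replicate number, circles and triangles mark fluidics status Completed and Started, and black bars give the mean and SD (n = 5); for Srxn1 all p38 arrays lie above all LacZ arrays, and for Nqo1 the groups lie over each other.

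Srxn1 encodes sulfiredoxin, the enzyme that uses ATP to restore peroxiredoxins whose active-site cysteine has been over-oxidised. Its brightest probe set, 1372510_at, stood at 7.09, 7.34, 7.23, 7.16 and 7.50 on LacZ 1 to 5 and at 8.18, 8.68, 8.03, 9.05 and 9.18 on p38 1 to 5. All 5 p38 arrays lay above all 5 LacZ arrays, as for 5.62% of tested probe sets (5.43% lay wholly below), with p38 4 and p38 5 the highest. Srxn1 rose 2.57-fold, a change of 1.36 ± 0.20 (adjusted p = 0.00640, 95% interval of the fold 1.90 to 3.47). Leaving out any of the 10 arrays gave changes of 1.22 to 1.50 and adjusted p-values of 0.00148 to 0.0238. Within the Completed arrays, 4 LacZ and 2 p38, the change was 1.90 (adjusted p = 2.2e-06), and within the Started arrays, 1 LacZ and 3 p38, it was 0.80 (adjusted p = 0.942). A second probe set of Srxn1, 1384331_at, had a LacZ mean below the brightness limit of the filter (5.80). With LacZ values below that limit raised to it, the fold was 1.50. As fitted in limma the probe set rose 1.78-fold (adjusted p = 0.0380, 95% interval of the fold 1.23 to 2.56). This call failed on removing any of LacZ 1 to 5, p38 2, p38 4 or p38 5, where adjusted p ran from 0.0605 to 0.104. The third, 1381067_at, was too dim to be tested, with means of 4.68 ± 0.49 in LacZ and 4.54 ± 0.35 in p38 (SD, n = 5). Averaging the 3 probe sets gave a change of 0.68 (adjusted p = 0.0256).

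Glutamate-cysteine ligase makes the rate-limiting step of glutathione synthesis, with Gclc encoding its catalytic and Gclm its modifier subunit. Gclc at 1372523_at read 7.89, 7.95, 7.82, 7.92 and 8.07 on LacZ 1 to 5 and 8.05, 8.19, 8.23, 8.64 and 8.91 on p38 1 to 5. The groups touched only at p38 1, which lay just below LacZ 5, and p38 4 and p38 5 were again highest. Gclc rose 1.39-fold, a change of 0.47 ± 0.15 (adjusted p = 0.0462). That call disappeared on removing any of LacZ 1 to 5, p38 2, p38 4 or p38 5 (adjusted p between 0.0531 and 0.118), on the unnormalized signals, and when blocking on fluidics module (adjusted p = 0.0740). Its other probe set, 1370688_at, had a change of 0.21 ± 0.17 (adjusted p = 0.424), and averaging both gave 0.34 (adjusted p = 0.149). Within Completed arrays the Gclc change at 1372523_at was 0.87 (adjusted p = 0.00025) and within Started arrays 0.08 (adjusted p = 0.982).

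Gclm gave 8.23, 8.29, 8.19, 8.37 and 8.76 on LacZ 1 to 5 and 9.07, 8.68, 8.28, 8.57 and 8.45 on p38 1 to 5. The groups overlapped and p38 1, lowest of its group for Gclc, was the highest array for Gclm. The change was 0.24 ± 0.15 and did not pass (adjusted p = 0.278, 95% interval of the fold 0.945 to 1.47). The changes of the ligase subunits differed by 0.23 ± 0.26 between Gclc and Gclm, with an exact permutation p of 0.413.

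Txnrd1 encodes the cytosolic thioredoxin reductase, a selenoenzyme that keeps thioredoxin reduced at the cost of NADPH. At 1398791_at it read 9.37, 9.49, 9.44, 9.48 and 9.61 on LacZ 1 to 5 and 9.36, 9.93, 9.70, 10.10 and 10.39 on p38 1 to 5. Array p38 1 lay at the bottom of the LacZ range and the other 4 p38 arrays lay above all LacZ arrays. The change of 0.42 ± 0.15 (1.33-fold) did not pass (adjusted p = 0.0796, 95% interval of the fold 1.06 to 1.68). Without p38 1 it was 0.55 and passed (adjusted p = 0.0086), and with fluidics status as a block it was 0.53 (adjusted p = 0.0304). Within Completed arrays it was 0.80 (adjusted p = 0.00018) and within Started arrays 0.05 (adjusted p = 0.986). The second probe set, 1386958_at, had the same change, 0.42 ± 0.24 (adjusted p = 0.248), with p38 1 and p38 3 inside the LacZ range and p38 2, p38 4 and p38 5 above it.

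Gsr encodes glutathione reductase, which returns oxidised glutathione to its reduced form. Its levels were 6.09, 6.35, 6.28, 6.34 and 6.35 on LacZ 1 to 5 and 6.70, 6.62, 6.38, 6.36 and 6.49 on p38 1 to 5. All p38 arrays lay above all LacZ arrays, as for 5.62% of tested probe sets (5.43% lay wholly below), but by a narrow margin. The change of 0.23 ± 0.12 did not pass (adjusted p = 0.198, 95% interval of the fold 0.980 to 1.40). The probe set naming both Prdx1 and Prdx1l1, peroxiredoxin genes that cannot be separated there, was bright, with means of 12.18 ± 0.11 in LacZ and 12.39 ± 0.14 in p38 (SD, n = 5). Its change of 0.21 ± 0.08 did not pass (adjusted p = 0.0719).

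Hmox1 encodes haem oxygenase 1, which opens haem to release iron, carbon monoxide and biliverdin, and which macrophages express strongly. It stood at 8.48, 8.49, 8.30, 8.05 and 9.56 on LacZ 1 to 5 and at 8.63, 9.87, 9.05, 10.41 and 9.95 on p38 1 to 5. LacZ 5 exceeded 2 of the p38 arrays, and apart from that array all p38 values lay above LacZ. Its mean was 2.01-fold that of LacZ, a change of 1.01 ± 0.33, the second largest among the members, with an adjusted p of 0.0537 that missed the threshold (95% interval of the fold 1.23 to 3.29). Without LacZ 5 the change was 1.25 (adjusted p = 0.0213), without p38 1 it was 1.24 (adjusted p = 0.0113) without p38 3 it also passed, and when blocking on fluidics module it was 1.18 (adjusted p = 0.0294), whereas without any of the other 7 arrays adjusted p ran from 0.102 to 0.135. Within Completed arrays it was 1.84 (adjusted p = 1.1e-05) and within Started arrays -0.38 (adjusted p = 0.968), which hold LacZ 5 and no other control.

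Nqo1 encodes a quinone reductase that is among the most widely used readouts of NRF2 activity. Its levels were 8.86, 9.17, 9.02, 9.08 and 9.26 on LacZ 1 to 5 and 9.10, 8.84, 9.20, 8.89 and 8.89 on p38 1 to 5. The groups overlapped throughout, and p38 4 and p38 5, highest for Srxn1, Gclc and Txnrd1, were in the lower part of the range. The change of -0.09 ± 0.10 did not pass (adjusted p = 0.557), and its sign turned to 0.08 with the signals as deposited. The 95% interval of the fold ran from 0.805 to 1.09. Osgin1, first described as a growth inhibitor induced by oxidative stress, read 6.36, 7.09, 6.72, 7.23 and 7.34 on LacZ 1 to 5 and 7.23, 7.10, 7.12, 7.39 and 7.15 on p38 1 to 5. The p38 arrays lay close together within or just above the LacZ range, in which LacZ 1 and LacZ 3 were lowest. The change was 0.25 ± 0.17 (adjusted p = 0.312, 95% interval of the fold 0.926 to 1.53).

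**Figure D2:**
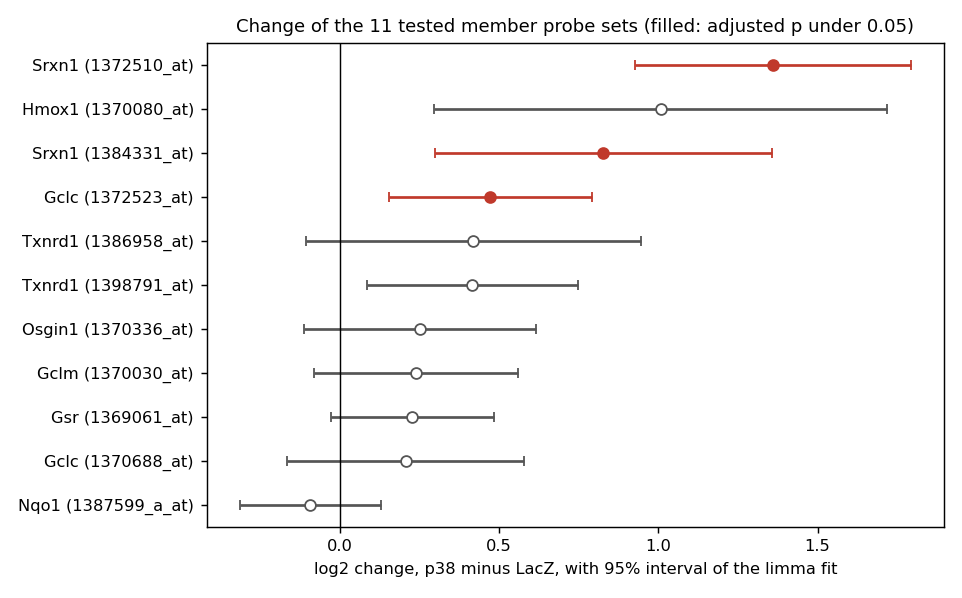
Change of each of the 11 tested member probe sets, p38 minus LacZ on the log2 scale (x axis), with the 95% interval of the limma fit as bars (y axis lists gene and probe set). Filled points passed at an adjusted p under 0.05: both brighter Srxn1 probe sets and 1 of the 2 Gclc probe sets; the Nqo1 interval runs from -0.31 to 0.13.

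At their brightest probe sets the members did not change by the same amount. Differences between the changes of 2 members were taken within each array, so that scaling of whole arrays cancels, and tested for all 28 pairs with a two-sided exact permutation test over the 10 arrays, whose smallest possible p is 0.00794. Srxn1 changed more than Nqo1, Gsr, Gclm, Osgin1, Txnrd1 and Gclc, by 1.45, 1.13, 1.12, 1.11, 0.94 and 0.89 on the log2 scale, each at that smallest p by the exact permutation test (adjusted p = 0.0370 over 28 pairs). These 6 pairs were the ones that passed. Other probe sets were not put to this test, so the ranking of Srxn1 holds for 1372510_at only. Its change was 0.83 at 1384331_at and -0.15 at 1381067_at, which was too dim to be tested in limma. The difference between Srxn1 and Hmox1 was 0.35 ± 0.26 (exact permutation p = 0.222, adjusted p = 0.346), so the largest changes could not be ordered. Hmox1 against Nqo1 differed by 1.10 ± 0.45, with an exact permutation p of 0.0556 (adjusted p = 0.173).

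The p38 arrays differed among themselves in a way that several members shared. Relative to the LacZ mean of each gene, the median over the 8 members was 0.56 on p38 5 and 0.53 on p38 4, against 0.32 on p38 2 and 0.20 on both p38 1 and p38 3. Array p38 5 was the highest of its group for Srxn1, Gclc and Txnrd1, and p38 4 for Hmox1 and Osgin1. Array p38 1 was lowest for Hmox1, Gclc and Txnrd1 and highest for Gclm and Gsr. Among the controls LacZ 5 was highest for 7 of the 8 members, all but Gsr, and LacZ 1 was lowest for 5. Both highest p38 arrays carried the status Completed, and the highest LacZ array Started.

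**Figure D3:**
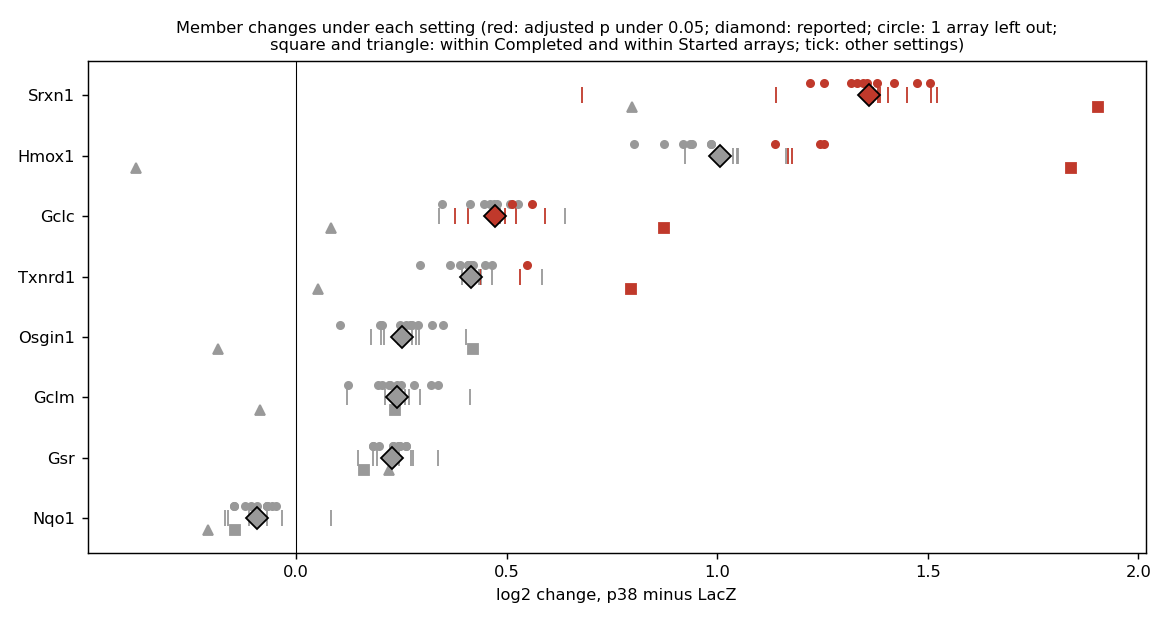
Change of each member gene, p38 minus LacZ on the log2 scale (x axis), at its brightest probe set (y axis) as reported (diamond), with 1 array left out (circles), within Completed or Started arrays (square, triangle) and in the other settings (ticks). Red marks an adjusted p under 0.05; Srxn1 is red at every point but the triangle at 0.80, and Hmox1 spans -0.38 to 1.84.

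Macrophage marker signal moved with several of these values. The summed signal of 20 macrophage markers ran from 11968 to 13402 on LacZ 1 to 4, was 17138 on LacZ 5, and was 15259, 23148, 19975, 31247 and 31231 on p38 1 to 5. For Hmox1 the p38 arrays stood in 1 order by marker signal and by level, though p38 4 and p38 5 were nearly level in marker signal. Apart from that pair Txnrd1 had the same order. LacZ 5 was the highest LacZ array by marker signal and by Hmox1 level. None of the 20 markers lay below the brightness limit on every array. Medians of the marker sums were 12391 in LacZ and 23148 in p38, and among defining markers Cd68, Ptprc and Tyrobp rose while Csf1r, Mrc1 and Cd163 did not pass. Their part in the changes of the members was not tested.

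**Figure D4:**
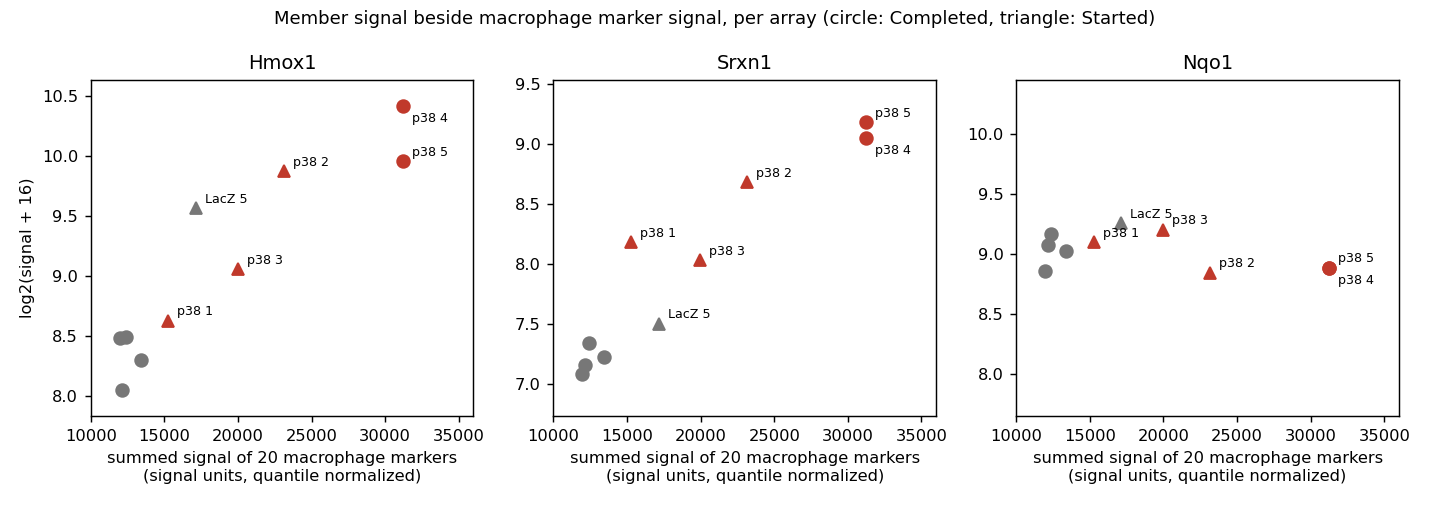
Level of Hmox1, Srxn1 and Nqo1 as log2(signal + 16) (y axis, the same height in each panel) beside the summed signal of 20 macrophage markers in signal units (x axis), 1 point per array, with circles and triangles for fluidics status Completed and Started; LacZ 1 to 4 are the unnamed grey circles. Array LacZ 5 stands at 9.56 for Hmox1, between p38 3 and p38 2, while for Srxn1 at 7.50 it stays below every p38 array.

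Markers of other cell types gave the following. Neutrophil markers had summed signals of 573 to 2493 in LacZ, the highest on LacZ 5, and 1244 to 3433 in p38, and 1 of 3 tested rose, with Camp below the limit on all arrays. T and NK cell markers ran from 629 to 825 in LacZ and 807 to 1298 in p38 (1 of 8 rose), and fibroblast markers from 32183 to 46046 and 31840 to 54766 (none of 8 passed). Endothelial markers ran from 7363 to 8046 and 6180 to 7379 (2 of 7 fell), red cell markers from 6644 to 11659 and 3926 to 6572 (2 of 3 fell), and smooth muscle markers from 9695 to 11004 and 9807 to 12908 (2 of 5 rose, 1 fell). Of 10 cardiomyocyte markers 1 rose and 2 fell, and none of 3 atrial and 4 skeletal muscle markers passed; atrial sums were 210 to 322 in LacZ and 206 to 369 in p38 2 to 5 but 1117 in p38 1, skeletal ones 26959 to 30827 and 27755 to 31064.

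Other genes of the NRF2 pathway were read from lists of regulators and of enzymes in the same chemistry. Over the 84 tested genes of these lists, 21 rose and 6 fell, or 25% and 7.14%, against the background of 11.6% and 6.23%, and 57 did not pass. Their median change was 0.04. The lists pool enzymes with regulators that act for and against NRF2, so these counts do not measure NRF2 activity. Counts again turned on single arrays: 9 rose without LacZ 3 or p38 4, 12 without LacZ 2, p38 2 or p38 5, and 13 without LacZ 4. For the falls, 1 was counted without LacZ 1, LacZ 4 or p38 4 and 2 without LacZ 2, LacZ 3, LacZ 5, p38 2 or p38 5, while 12 were counted without p38 1 and 10 without p38 3. With the signals as deposited 12 rose and none fell. Of the 27 calls, 10 held without each single array, the rises of Btrc, Cbr3, Glrx, Me2, Mthfd2, Prdx4, Rbx1, Txn1 and Txndc12 and the fall of Nfe2l1. Of these 10, Btrc lost its call when all probe sets of a gene were averaged. The 4 Started arrays are among the 10 that gave the 27 calls, so signs there are partly fixed by that choice and are no separate support. With 1 LacZ array among them adjusted p says little. There 26 of the 27 changes had the same sign, all but Akr1b8 at -0.13. Sizes there varied, with 0.95 for Cbr3, 0.88 for Me2, 0.45 for Btrc, 0.29 for Rbx1 and -0.44 for Nfe2l1, but 0.47 for Mthfd2, 0.16 for Txn1 and 0.07 for Prdx4.

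Among 11 tested regulators 4 rose and 1 fell, with a median change of 0.06. Nfe2l2 itself rose 1.28-fold (change 0.36 ± 0.10, adjusted p = 0.0264), a call lost without any of LacZ 1 to 4, p38 2, p38 4 or p38 5. Maff, a small MAF partner of NRF2, rose 1.43-fold (0.52 ± 0.13), Rbx1 of the CUL3 ligase 1.25-fold (0.33 ± 0.07, adjusted p = 0.0123), and Btrc, an adaptor of a second ligase that targets NRF2, 1.39-fold at its brightest probe set. Averaging the 3 probe sets of Btrc gave a change of 0.13 that did not pass (adjusted p = 0.363). Nfe2l1, the related factor NRF1, fell by 0.36 (log2 change, SE 0.08; adjusted p = 0.0157), a call that was lost on the unnormalized signals. Keap1 had a change of -0.09 ± 0.08 (adjusted p = 0.466). Bach1, a repressor of Hmox1, was below the brightness limit on every array.

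Glutathione synthesis and use gave 5 rises and 2 falls among 22 tested genes, with a median change of 0.12. Glutathione synthetase (Gss), which acts after glutamate-cysteine ligase, rose 1.53-fold (0.62 ± 0.17, adjusted p = 0.0282), glutaredoxin (Glrx) 1.44-fold (0.53 ± 0.12, adjusted p = 0.0169), and Chac1, which degrades glutathione, 1.60-fold. The microsomal transferases Mgst1 and Mgst2 rose 1.36-fold and 1.28-fold, while the transferases Gstk1 and Gstm2 fell by 0.47 and 0.39 on the log2 scale. Over 26 alternatives the calls of Mgst1, Mgst2, Gstk1 and Gstm2 held in 10, 15, 12 and 12. Of the calls in this list only that of Glrx held without each single array. Cystine import by Slc7a11 was too dim to be tested.

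In the list named NADPH supply 3 of 11 tested genes rose and 1 fell (median change 0.11). The list was not divided by cofactor and holds enzymes that work with NAD, Me2 and Mthfd2 among them. The mitochondrial malic enzyme Me2 rose 2.29-fold (1.19 ± 0.17, adjusted p = 0.00611), the mitochondrial folate enzyme Mthfd2 2.28-fold (1.19 ± 0.24, adjusted p = 0.0118) and transketolase (Tkt) 1.45-fold (adjusted p = 0.0416), while the malic enzyme Me3 fell by 0.42. The other 7 tested genes did not pass at their brightest probe set. Their changes were 0.37 for Pgd, 0.25 for Taldo1, 0.11 for Pgls, -0.01 for Idh1, -0.05 for Idh2, -0.12 for Me1 and -0.16 for Nnt. Another probe set of Me1 was called lower. At the brightest probe sets the changes of Me2 and Mthfd2 lay between those of Hmox1 and Srxn1. Averaged over both its probe sets, Me2 changed by 0.83 (adjusted p = 0.0111 in limma), below Hmox1. The Tkt call did not hold on removing any of LacZ 1 to 5, p38 2, p38 4 or p38 5.

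Among 16 thioredoxin and peroxiredoxin partners 6 rose and 1 fell (median change 0.08). Thioredoxin itself (Txn1), the substrate of thioredoxin reductase, rose 1.30-fold with a small error (0.38 ± 0.07, adjusted p = 0.00921). Prdx4, the peroxiredoxin of the endoplasmic reticulum, rose 1.40-fold (0.48 ± 0.11), Txndc12, a thioredoxin-like protein of that compartment, 1.32-fold, and nucleoredoxin (Nxn) 1.29-fold at its brightest probe set. Averaging both probe sets of Nxn gave a change of -0.13 (adjusted p = 0.350), which turned its direction. Of the stress-induced sestrins, Sesn2 rose 1.36-fold and Sesn3 1.63-fold while Sesn1 fell by 0.54 (SE 0.14, adjusted p = 0.0223). Averaged over both probe sets of each gene, the change was 0.04 for Sesn3 (adjusted p = 0.875) and 0.34 for Sesn2 (adjusted p = 0.148), and neither passed. Mitochondrial Txnrd2, Txn2 and Prdx3 had changes of -0.31, -0.14 and -0.17, and none of the 3 passed.

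The haem and iron list had no probe set for the ferritin genes Ftl1 and Fth1, so ferritin was not measured. None of its 7 tested genes passed in limma. The smallest adjusted p belonged to ferrochelatase (Fech), the last enzyme of haem synthesis, with a change of -0.28 ± 0.10 (adjusted p = 0.0681), followed by the iron exporter Slc40a1 at -0.26 ± 0.11 (adjusted p = 0.108). These 2 had an unadjusted p under 0.05. Detoxification and export gave 3 rises and 1 fall among 17, with a median change of -0.07. The aldo-keto reductase Akr1b8 rose 1.91-fold (0.93 ± 0.27, adjusted p = 0.0364), carbonyl reductase 3 (Cbr3) 1.73-fold (0.79 ± 0.13, adjusted p = 0.00774) and UDP-glucose dehydrogenase (Ugdh) 1.49-fold (0.58 ± 0.14, adjusted p = 0.0207). The epoxide hydrolase Ephx1 fell by 0.41 (SE 0.13, adjusted p = 0.0470). The call of Ephx1 failed on removing any of LacZ 1 to 5, p38 2, p38 4 or p38 5. That of Akr1b8 failed on removing any of LacZ 1 to 4, p38 2, p38 4 or p38 5.

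**Figure D5:**
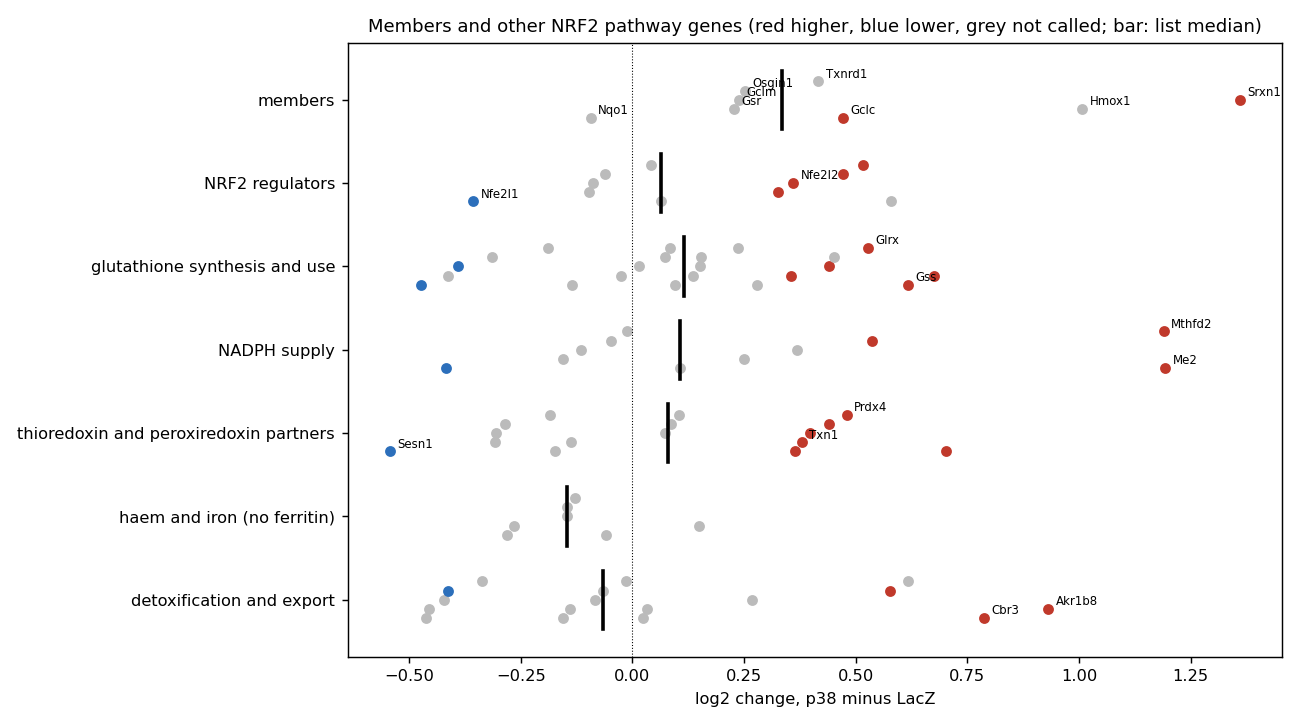
Change of each tested gene, p38 minus LacZ on the log2 scale (x axis), for the 8 members and 6 lists of other NRF2 pathway genes (y axis; vertical spread within a list has no meaning). Red and blue points passed as higher and lower at an adjusted p under 0.05, grey points did not pass, and bars mark list medians, from 0.33 for the members to -0.15 for the 7 haem and iron genes, which include no ferritin gene.

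The genes nearest to a member in pattern were found by the root mean square difference of log2 levels over the 10 arrays, each gene centred on its own mean, among 10596 genes. The 5 nearest to Srxn1 were Asns (asparagine synthetase), Lmcd1, C3h15orf48, Plscr1 and Klhl41, at differences of 0.09 to 0.14, where Srxn1 itself had an SD of 0.80 over the arrays. The changes of these 5 genes ran from 1.22 to 1.37. This follows from the choice, since levels over both groups were matched to those of Srxn1. Nearest to Hmox1 were Ncf4, a subunit of the phagocyte oxidase, Plac8, Ms4a6bl1, Pvt1 and Lypd8l1, at 0.16 to 0.22 with an SD of 0.82 for Hmox1. Nearest to Gclc were Mfsd1, Ssr1, Septin10, Nup205 and Arf4, at 0.07 to 0.08 with an SD of 0.35. The lists of 5 genes shared no gene. The measure also depends on how far a gene varies, which differed between Gclc and both Srxn1 and Hmox1. No conclusion on separate patterns is drawn from it.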

How the data were processed

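The authors deposited linear intensity values, 1 for each probe set on each array, made with GCOS 1.2 per the submitters' processing notes. Array medians of 60.3 to 88.05 show that arrays were not at a common level. Detection calls were not used. Values were transformed to log2(signal + 16), a scale that understates changes of dim probe sets, and quantile normalized after removing 57 control probe sets. The dimmest 40% of 31042 were not tested, a limit of 5.80, or about 39.6 signal units. Where a group mean lay below it, the values of that group under the limit were raised to it array by array. The fold so obtained is not a confidence bound, and the limma fit used the values as they were. The deposited experiment files gave fluidics status and module, which are other entries than measurements, per the file headers.

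The comparison of p38 with LacZ used limma 3.58.1 (R 4.3.3), moderated along an intensity trend (lmFit, eBayes), with two-sided tests at a threshold of 0.05. A gene was read at its probe set with the highest mean. Members, lists and tests were chosen with earlier results of these data known, and the pair tests and looser motif after values were seen. Named genes comprise all members, the called genes of each pathway list (the 2 smallest p-values where fewer were called), and the 5 nearest in pattern to Srxn1, Gclc and Hmox1. The changes of other genes named to identify a count or compartment were chosen after values were seen. Alternatives numbered 26. The number of arrays limits the precision, and the median 95% interval reached 0.28 to either side.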

Additional observations from a re-analysis of the deposited data

Results flagged for a closer look

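In 78 groups of 5 arrays (member probe sets and called pathway genes, in each group), 5 held an array set apart from the other 4 by Dixon's test at the 95% level, and chance flags about 1 in 20 such groups. For Gsr, LacZ 1 stood at 6.09 against 6.28 to 6.35 on the other LacZ arrays. For Mgst2, LacZ 5 stood at 8.18 against 7.83 to 7.93, and for Ugdh, LacZ 5 stood at 9.12 against 8.74 to 8.83. For Me2, LacZ 1 stood at 6.36 against 6.63 to 6.72. For Sesn3, p38 1 stood at 6.02 against 6.57 to 6.71 on the other p38 arrays.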

How the results depend on the processing

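Srxn1 kept its call at 1372510_at in 25 of 26 alternatives, all but the 4 Started arrays, and Gsr kept its direction in all 25 in which it was tested. The other results depended on the setting. The 2 members called higher became 1 with the signals as deposited, without a filter on dim probe sets, without a variance trend or with all probe sets of a gene averaged, 3 with the dimmest 60% left out (Hmox1 added) or fluidics status as a block (Txnrd1 added), 4 with array weights or within Completed arrays, 0 within Started arrays, and 1 to 4 with 1 array left out. With fluidics module as a block the count stayed at 2, but Hmox1 passed in place of Gclc. No member was lower in any alternative. Within Started arrays the change was -0.38 for Hmox1, -0.18 for Osgin1, -0.085 for Gclm, -0.31 for Gclc at 1370688_at and -0.069 for Txnrd1 at 1386958_at, and the Nqo1 change was 0.083 with the signals as deposited. That scaling put the median change of all tested probe sets at 0.11, against -0.03 as reported, and the member median at 0.50. Under it 956 probe sets were called higher and 87 lower, a share of 91.7% higher, against 53.7% (1601 and 1378) as reported, 67.9% with median centring and 58.8% with cyclic loess.

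Of the other pathway genes, 21 rose and 6 fell as reported. With the signals as deposited 12 and 0 did, and within Started arrays 0 and 0. Falls numbered 2 with median centring, no filter or no variance trend, 3 with the fluidics module as a block, 16 with fluidics status as a block and 23 within Completed arrays. With 1 array left out, 9 to 23 rose and 1 to 12 fell. Averaging all probe sets of a gene ended 5 of the 27 calls, those of Btrc, Mgst1, Nxn, Sesn2 and Sesn3. Over all tested probe sets, falls numbered 777 with median centring and 865 without a filter. Rises and falls were 2618 and 2577 with array weights, 3088 and 3640 within Completed arrays, 2 and 3 within Started arrays, and 698 to 2317 and 532 to 2151 with 1 array left out. Within Started arrays a lone LacZ array was assumed to vary like the others. The causes of these shifts were not tested.

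Same-numbered LacZ and p38 arrays deviated together at r over 0.1 in 2 of 5 pairs, and 2 of 5 LacZ arrays correlated best with their own number. The labels state no pairing, and 5 pairs are too few for these values to settle it. With replicate number as a block, 4 members were higher, with Hmox1 (adjusted p = 0.0353) and Txnrd1 (adjusted p = 0.0400) added, the Srxn1 probe set 1384331_at did not pass (adjusted p = 0.0627), and 21 other pathway genes rose and 5 fell.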
